A study of Mus musculus with 4 samples.

Results

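The granule docking and exocytosis machinery comprises the genes that carry a secretory granule to the plasma membrane, prepare it there and fuse it when calcium rises. Its members were taken from the gene names on the array by their family names, namely synaptotagmins, synaptotagmin-like proteins, RIM, syntaxin, syntaxin-binding, VAMP, SNAP, Rab3, Rab27, Munc13, complexin, Doc2 and the granule proteins Ptprn and Ptprn2. The rule gave 95 genes of 22289 with a symbol in the RefSeq table, and 147 of 55681 non-control probes. Each gene is represented by its brightest probe over the 4 arrays. Because the rule reads the first letters of a name, it also took in 12 Rab GTPases numbered from Rab30 to Rab39b, which are relatives in name of Rab3, and Snap91, a clathrin adaptor outside the SNAP-25 family.

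Islets of 24-week-old C57BL/6 mice were compared in 4 groups with 1 one-colour Agilent array each. The groups were transgenic males carrying an E2 implant, profiled 6 weeks after implantation (male Tg E2), transgenic females (female Tg), transgenic males, diabetic per the labels (male Tg), and wild-type males (male WT). E2 commonly stands for estradiol. The transgene, its promoter and the number of mice behind each array are not given in the sources used here, and the female and E2 arrays carry it as the male Tg array does. With no replicate, every difference is one between single arrays, no p-value is given, and the error printed is technical.

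In an islet cell, Rab27 and Rab3 GTPases sit on the granule and recruit effectors that tether it to the plasma membrane. RIM and Munc13 proteins then prime the granule, Munc18 proteins hold and release syntaxin, and a SNARE complex of syntaxin, SNAP-25 and VAMP2 drives fusion. Synaptotagmins and Doc2 proteins supply the calcium sensor and complexins act on the assembled SNAREs. The same families serve acinar zymogen granules, platelets, lymphocytes and neurons with other members.

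The 75th percentile of processed intensity was 338 on the male Tg E2 array, 294 on the female Tg array, 230 on the male Tg array and 410 on the male WT array, and each value below is an intensity divided by its array's 75th percentile (scaled intensity, where 1 is that percentile). Between 49.9% and 54.8% of spots were well above background by the call in the scanner files. Among probes printed in 10 spots, the median spot-to-spot standard deviation of an array was 0.066 to 0.0752 log2. The scanner software's error model gave a member's log2 difference a median standard error (SE) of 0.20 to 0.21. All 11 beta cell markers were well above background on every array. Their median scaled intensity was 34.4 on the male Tg E2 array, 43.2 on the female Tg array, 15.8 on the male Tg array and 75.3 on the male WT array. Their summed level was 2313 on the male Tg E2 array, 2206 on the female Tg array, 2948 on the male Tg array and 2355 on the male WT array. The male Tg array was thus lowest by the median and highest by the sum. The summed level of 17 acinar markers was 6709 on the male Tg E2 array, 837 on the female Tg array, 11181 on the male Tg array and 759 on the male WT array. Lower RNA per cell and fewer cells of a type cannot be told apart in these bulk islets.

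Of the 95 members, 81 were well above background on all 4 arrays and Doc2a, Stxbp5, Syt10 and Syt8 on 3. Cplx3 and Rims1 were so on 1 array, and Cplx4, Rims4, Stx19, Syt12, Syt14, Syt17, Syt2 and Unc13c on none. A difference counts as measured where the probe is well above background on both arrays, and as a call where it reaches 2-fold.

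Male Tg islets were set against male WT islets first, and the docking gene Sytl4 and the active zone gene Rims3 were over 10-fold lower, while most SNARE genes lay inside the 2-fold limits. Of 83 members measured, 10 were at least 2-fold higher on the male Tg array (12%), against 15.5% of all 14337 genes measured. A further 13 members were at least 2-fold lower (15.7%), against 9.14% of all genes. The median difference of the members was -0.32 log2, beside -0.22 for all genes, and 58 members (69.9%) lay below 0, beside 61.6% of all genes. The members' share was below that of all genes on the higher side and above it on the lower side. Without Snap91 and the 12 Rab genes that the name pattern added, Rab37 among them, the lower share was 11.4%. Under all 10 alternatives of scaling, background correction, filter and probe choice, 5 of the 10 higher and 6 of the 13 lower members stayed past 2-fold.

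**Figure D1:**
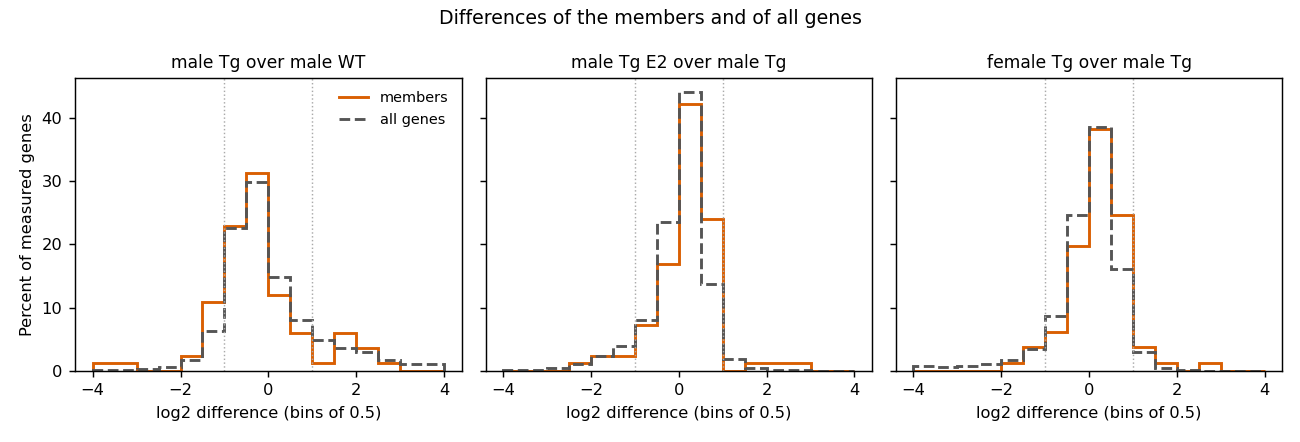
Log2 differences of the measured members (solid orange line) and of all measured genes (dashed grey line), as percent of genes in bins of 0.5, for male Tg over male WT, male Tg E2 over male Tg and female Tg over male Tg, with dotted lines at the 2-fold limits. Members and all genes have similar outlines in all 3 panels, with member medians of -0.32, 0.20 and 0.25 and medians of all genes of -0.22, 0.13 and 0.11.

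The 2 members with the largest deficit on the male Tg array were Sytl4 and Rims3. Sytl4 encodes granuphilin, a Rab27 effector that docks insulin granules at the plasma membrane, and Rims3 a short member of the RIM family of active zone proteins. Because the results turn on these genes, the first 30 bases of their probes are shown, with the upstream regions that RefSeq gives them on GRCm38.p6. Each region runs from 250 bases before to 50 after the start site, on the gene's own strand (Sytl4 at chrX:133981763-133982062, minus strand, and Rims3 at chr4:120854549-120854848, plus strand). Capitals mark the letters CCGCCC (the GC box GGGCGG read on the other strand) and GGACAG (the right arm of the RE1 element that the repressor REST binds), and the Sytl4 region holds neither.
Sytl4 brightest probe, chrX:130470950-130471009 on mm9: ccaggctcagacttgttctttgatattcta
Sytl4 second probe, chrX:130481094-130481153 on mm9: gggatcttgggggtccagagagatatactt
Rims3 brightest probe, chr4:120569114-120569173 on mm9: cttcacatggcttctgcatgtacagtattt
Rims3 second probe, chr4:120563927-120563986 on mm9: atggaccacaagtgcttcatgggtatggcc
Sytl4 upstream region: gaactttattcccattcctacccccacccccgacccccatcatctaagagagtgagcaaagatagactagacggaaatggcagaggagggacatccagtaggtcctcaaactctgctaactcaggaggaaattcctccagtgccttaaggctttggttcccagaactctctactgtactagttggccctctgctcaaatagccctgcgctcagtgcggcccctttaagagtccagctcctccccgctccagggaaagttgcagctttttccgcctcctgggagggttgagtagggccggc
Rims3 upstream region: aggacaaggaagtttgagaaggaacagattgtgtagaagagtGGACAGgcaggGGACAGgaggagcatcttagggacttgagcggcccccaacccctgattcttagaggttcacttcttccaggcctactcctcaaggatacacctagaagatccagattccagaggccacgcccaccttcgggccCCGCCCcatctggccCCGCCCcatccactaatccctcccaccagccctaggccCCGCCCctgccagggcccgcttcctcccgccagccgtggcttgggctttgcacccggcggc

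Sytl4 had a scaled intensity of 9.33 on the male Tg E2 array, 12.7 on the female Tg array, 2.22 on the male Tg array and 26.6 on the male WT array. The male Tg array was the lowest, the other transgenic arrays lay between, and male WT was the highest. The difference of male Tg over male WT was -3.59 ± 0.20 log2 (error-model SE), a 12-fold lower level. Its second probe read 0.592 on the male Tg E2 array, 0.972 on the female Tg array, 0.178 on the male Tg array and 1.95 on the male WT array. That probe gave -3.46 log2 for male Tg over male WT, so both Sytl4 probes placed the arrays in the same order.

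Rims3 stood at 34.3 on the male Tg E2 array, 17.7 on the female Tg array, 4.98 on the male Tg array and 54.4 on the male WT array. Again the male Tg array was lowest and the male WT array highest, with the male Tg E2 array above the female Tg array. Male Tg over male WT was -3.45 ± 0.20 log2, 10.9-fold lower. On the male Tg array the second Rims3 probe did not rise well above background. There the difference has only a bound, which sets the clear signal against the higher of the dim array's lowest clear signal and the dim probe's own (an "at least" value), and it was at -2.93 log2 or lower.

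Rims2 encodes the RIM protein through which granules of beta cells meet Rab3 and the cAMP sensor Epac2. It read 0.251 on the male Tg E2 array, 0.306 on the female Tg array, 0.144 on the male Tg array and 0.311 on the male WT array, and male Tg over male WT was -1.11 ± 0.29 log2. Among the Munc13 priming factors, Unc13a differed by -0.41 log2 and Unc13b by -0.48, both inside the 2-fold limits. Unc13d, which primes granules of platelets and cytotoxic lymphocytes, had 0.315 on the male Tg E2 array, 0.787 on the female Tg array, 0.733 on the male Tg array and 0.354 on the male WT array. Its male Tg over male WT difference of 1.05 ± 0.21 log2 was not shared by its second probe, which gave -0.54.

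**Figure D2:**
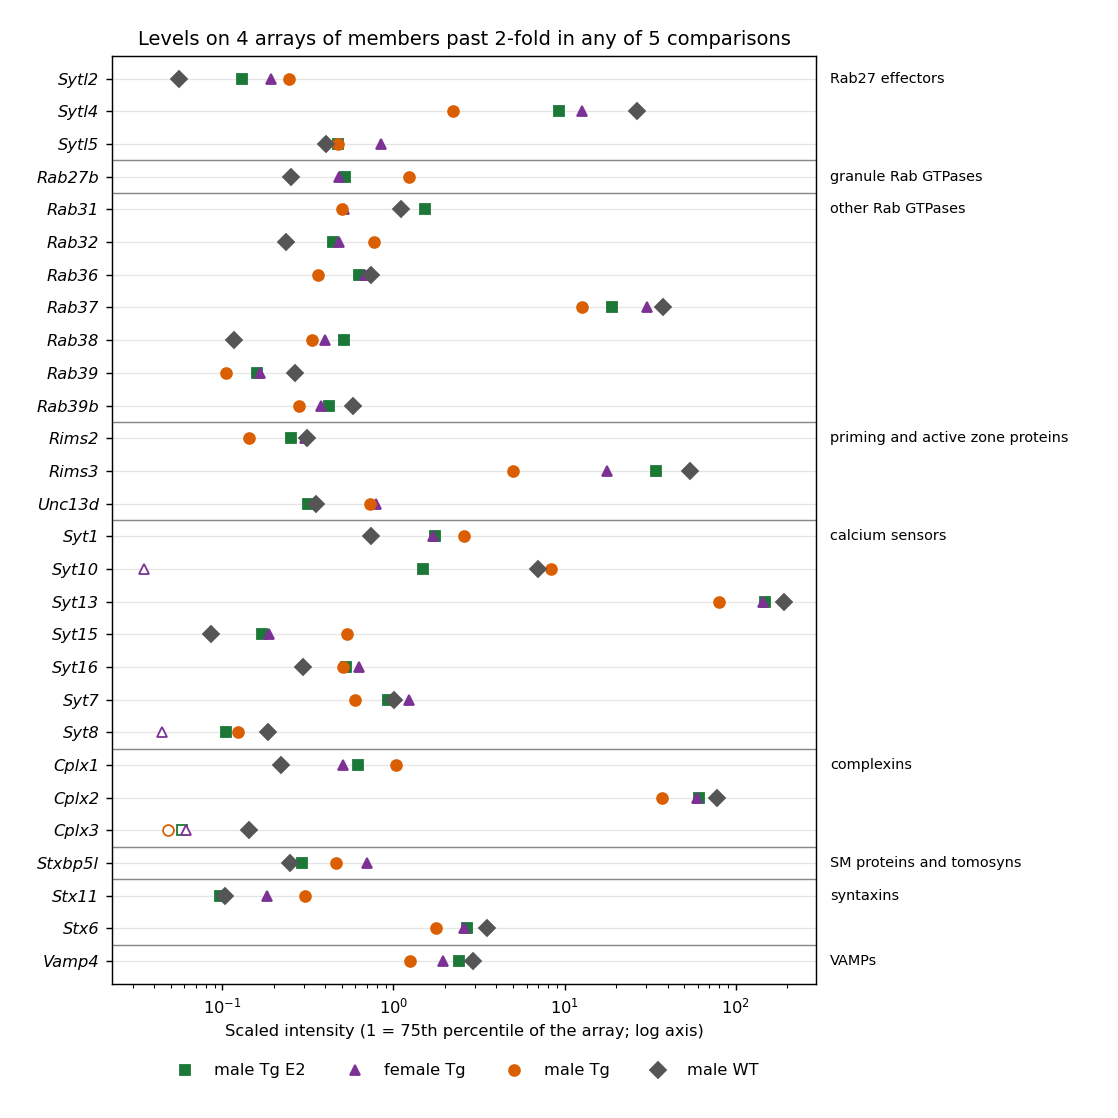
Scaled intensity on a log axis (1 is the 75th percentile of the array) of members past 2-fold in any of 5 comparisons, grouped by role, with 1 symbol per array and open symbols where the probe was not well above background. Sytl4 lies between 2.22 and 26.6 and Rims3 between 4.98 and 54.4 with the male Tg array lowest, and Syt10 is the member whose arrays lie farthest apart, between 0.0348 and 8.29.

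Of the 6 granule Rab GTPases 5 lay inside the 2-fold limits in male Tg over male WT and 1 was higher (16.7%, against 15.5% of all genes). None was lower (against 9.14%), and the median of the 6 was -0.34 log2 beside -0.22 for all genes. Rab27a, the Rab27 of insulin granules, had 2.97 on the male Tg E2 array, 2.98 on the female Tg array, 1.78 on the male Tg array and 2.52 on the male WT array (a male Tg over male WT difference of -0.50 log2). Rab3a, Rab3b, Rab3c and Rab3d differed by -0.89, -0.78, -0.17 and -0.11 log2. Rab27b, known from acinar zymogen granules and platelets as well as from endocrine cells, was the exception. It read 0.522 on the male Tg E2 array, 0.481 on the female Tg array, 1.22 on the male Tg array and 0.251 on the male WT array, with male Tg the highest. Male Tg over male WT was 2.28 ± 0.21 log2, 4.87-fold higher, and a second Rab27b probe gave 2.55. Beside it, 16 of 17 acinar markers were at least 2-fold higher on the male Tg array with a median of 4.58 log2, and 4 of 5 platelet markers with a median of 1.24, and their part in the Rab27b difference was not tested.

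Sytl2, whose protein targets glucagon granules in mouse alpha cells, was the other Rab27 effector past 2-fold. Its level was 0.130 on the male Tg E2 array, 0.191 on the female Tg array, 0.245 on the male Tg array and 0.056 on the male WT array, all near the dim end, and male Tg over male WT was 2.13 ± 0.36 log2. The 7 alpha cell markers had a median difference of 1.32 log2 in the same comparison, with 4 of them at least 2-fold higher, none lower and Gc at -0.03. Their summed level was 918 on the male Tg E2 array, 931 on the female Tg array, 1163.5 on the male Tg array and 695 on the male WT array. Medians of other cell types included 1.33 for 4 delta cell, 3.37 for 9 lymphocyte, 3.86 for 5 stellate and -1.76 for 11 beta cell markers. The part of these cells in the Sytl2 difference was not tested. Sytl1, Sytl3 and Sytl5 differed by -0.25, 0.53 and 0.25 log2.

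The calcium sensor class held 15 measured synaptotagmin and Doc2 genes, some of which do not bind calcium. Of these genes, 2 were at least 2-fold higher on the male Tg array (13.3%, against 15.5% of all genes). A further 1 was lower (6.67%, against 9.14%) and 12 lay between, with a median of -0.03 log2. Syt13, an atypical synaptotagmin that does not bind calcium, had 148 on the male Tg E2 array, 144 on the female Tg array, 79.6 on the male Tg array and 192 on the male WT array, and male Tg over male WT was -1.27 ± 0.20 log2. Syt15, also calcium-independent, was at 0.171 on the male Tg E2 array, 0.188 on the female Tg array, 0.535 on the male Tg array and 0.086 on the male WT array. That made it the member with the largest excess on the male Tg array, at 2.64 ± 0.27 log2 (6.22-fold). Its male WT level was near the dim end, and under the alternatives of processing the difference went down to 1.29. The lowest value of Rab27b under those alternatives was 1.58. Syt1, the fast sensor of synaptic vesicles, read 1.74 on the male Tg E2 array, 1.70 on the female Tg array, 2.57 on the male Tg array and 0.736 on the male WT array (male Tg over male WT 1.81 ± 0.21 log2). All 3 transgenic arrays lay above male WT for Syt1 and for Syt15.

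Other synaptotagmin and Doc2 genes known from endocrine granules lay inside the 2-fold limits on the male Tg array. Syt7, a sensor of insulin and glucagon release, had 0.925 on the male Tg E2 array, 1.24 on the female Tg array, 0.598 on the male Tg array and 1.0 on the male WT array, and its male Tg over male WT difference was -0.75 ± 0.21 log2. Syt4 differed by -0.95 log2, Syt5 by -0.03, Syt9 by 0.05 and Doc2b by 0.01.

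Stxbp2 and Stxbp3, of the Munc18 family, differed by -0.22 and -0.37 log2 in male Tg over male WT. The tomosyn gene Stxbp5l, whose product competes for syntaxin, differed by 0.89 log2, and Stxbp5 had no clear signal on the male Tg array.

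The core SNAREs of insulin granule fusion lay within the 2-fold limits. Snap25, a plasma membrane SNARE, had 26.0 on the male Tg E2 array, 23.4 on the female Tg array, 25.3 on the male Tg array and 27.4 on the male WT array, a spread of 1.17-fold between the lowest and the highest. Vamp2, the granule SNARE, had 12.9 on the male Tg E2 array, 9.05 on the female Tg array, 8.99 on the male Tg array and 13.9 on the male WT array. Stx1a, its plasma membrane partner, had 0.593 on the male Tg E2 array, 0.903 on the female Tg array, 0.513 on the male Tg array and 0.622 on the male WT array. In male Tg over male WT these differed by -0.11, -0.63 and -0.28 log2. Of 11 SNAREs known from fusion at the plasma membrane, 1 was at least 2-fold higher (9.09%, against 15.5% of all genes). None was lower, against 9.14%, and their median was -0.18 log2, beside -0.22 for all genes.

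Stx3, which acts in fusion of newcomer granules in beta cells, differed by -0.86 log2, and Vamp8, a SNARE of zymogen granules that also serves islet cells, by -0.03. The 13 SNAREs of other membranes had a median of -0.42 log2. None was at least 2-fold higher and 15.4% were lower, against 15.5% and 9.14% of all genes. Past 2-fold among them were Vamp4 (-1.23 ± 0.21) and Stx6 (-1.0 ± 0.20), both SNAREs of the trans-Golgi network and of maturing granules. Vamp4 had 2.41 on the male Tg E2 array, 1.95 on the female Tg array, 1.24 on the male Tg array and 2.91 on the male WT array, with male Tg lowest. A second Vamp4 probe gave -0.82 log2 and a second Stx6 probe -0.79, and Stx6 was past 2-fold in 4 of the 10 alternatives. Stx11, a syntaxin of cytotoxic lymphocytes and platelets, was 1.55 ± 0.25 log2 higher on the male Tg array, beside a median of 3.37 for 9 lymphocyte markers, of which 8 were at least 2-fold higher, and their part was not tested.

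The 2 measured complexins differed in opposite directions. Cplx1 had 0.619 on the male Tg E2 array, 0.507 on the female Tg array, 1.03 on the male Tg array and 0.219 on the male WT array, and male Tg over male WT was 2.24 ± 0.22 log2. Cplx2 had 60.9 on the male Tg E2 array, 59.6 on the female Tg array, 37.3 on the male Tg array and 77.4 on the male WT array, and male Tg over male WT was -1.05 ± 0.20 log2. Both proteins bind the assembled SNARE complex. The size of the Cplx2 difference depends on the probe, since 5 probes carry its name and the 4 dimmer ones gave -1.61, -2.45, -2.81 and -3.03 log2. All 60 bases of each of those 4 are A or G, against 55% in the brightest one, and the file places 2 of the 4 away from the Cplx2 locus on chromosome 13.

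The Rab GTPases that the name pattern added held 7 of the 23 calls. Rab37, a Rab found on secretory granules, had 19.0 on the male Tg E2 array, 30.3 on the female Tg array, 12.7 on the male Tg array and 37.7 on the male WT array, and male Tg over male WT was -1.57 ± 0.20 log2. Rab39 (-1.33), Rab31 (-1.14), Rab39b (-1.04) and Rab36 (-1.02) were also at least 2-fold lower. Rab32 (1.72) and Rab38 (1.52), which act in the making of melanosomes and related organelles, were at least 2-fold higher. Without these 12 Rab genes and Snap91, 8 of 70 measured members were higher (11.4%) and 8 lower (11.4%), beside 15.5% and 9.14% of all genes, with a median of -0.31 log2. The granule membrane genes Ptprn and Ptprn2, which encode the autoantigens IA-2 and phogrin, differed by -0.32 and -0.41 log2.

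**Figure D3:**
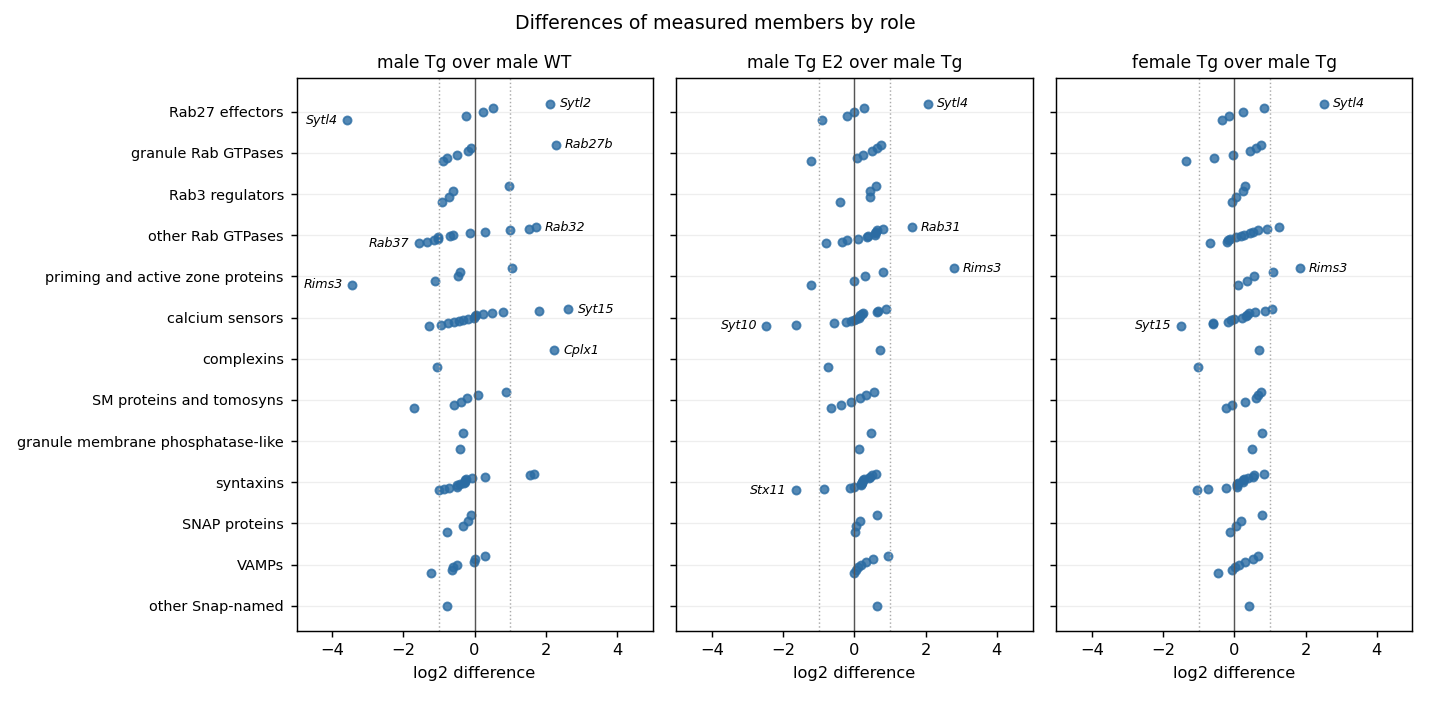
Log2 differences of the measured members by role for male Tg over male WT, male Tg E2 over male Tg and female Tg over male Tg, 1 point per gene, with dotted lines at the 2-fold limits and names on some outermost members at 1.5 log2 or beyond. Sytl4 (-3.59) and Rims3 (-3.45) lie far left in the first panel and right of the upper limit in the other 2 panels, while SNAP proteins and all VAMPs except Vamp4 in the first panel (-1.23) lie inside the limits.

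A list of 64 further docking, priming and fusion genes that are no members was set beside them. In male Tg over male WT, 59 were measured, 1 was at least 2-fold higher (1.69%, against 15.5% of all genes) and 6 lower (10.2%, against 9.14%), with a median of -0.40 log2. The lower ones were the granule and vesicle glycoprotein gene Sv2a (-2.01), the active zone gene Pclo (-1.88), the Rab3 and Rab27 effector gene Rph3al (-1.55), the priming gene Cadps (-1.21), Napa (-1.15), whose product helps to take SNARE complexes apart, and Syngr1 (-1.03). Sv2c (1.5) was the one higher. In the same comparison 8 of 11 beta cell markers were at least 2-fold lower, with a median of -1.76 log2. The others, Ins1 (0.65), Ins2 (0.71) and Iapp (0.28), were higher on the male Tg array, inside the 2-fold limits. The part of beta cell number or state in the members' differences was not tested.

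The male Tg E2 array differed from the male Tg array in fewer members, and Rims3 and Sytl4 led those that were higher. Of 83 measured members 3 were at least 2-fold higher (3.61%), against 2.59% of all genes, and 5 lower (6.02%), against 7.95%. The median difference of members was 0.20 log2, beside 0.13 for all genes. This comparison shares the male Tg array with the one above, so the values are set side by side and not counted together.

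With the levels given above, Rims3 was 2.79 ± 0.20 log2 (6.89-fold) higher and Sytl4 2.07 ± 0.20 log2 (4.21-fold) higher on the male Tg E2 array than on the male Tg array. The second Sytl4 probe gave 1.74 log2 and the second Rims3 probe at least 2.24. Rab31, an endosomal and Golgi Rab, had 1.53 on the male Tg E2 array, 0.515 on the female Tg array, 0.503 on the male Tg array and 1.11 on the male WT array, and male Tg E2 over male Tg was 1.61 ± 0.21 log2. For Rab31 the male Tg E2 array was the highest of the 4, and the female Tg and male Tg arrays lay together.

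Lower on the male Tg E2 array were Syt10, Stx11, Syt15, Rab27b and Unc13d. Stx11 had 0.097 on the male Tg E2 array, 0.183 on the female Tg array, 0.304 on the male Tg array and 0.104 on the male WT array, a difference of -1.65 ± 0.29 log2 for male Tg E2 over male Tg. Syt15 differed by -1.65 ± 0.24, Rab27b by -1.23 ± 0.21 and Unc13d by -1.22 ± 0.22 log2, while the second Unc13d probe gave -0.19. Beside these, the medians of male Tg E2 over male Tg were -1.83 log2 for 9 lymphocyte markers, -3.56 for 5 platelet markers and -0.80 for 17 acinar markers. Summed levels of the platelet markers were 7.11 on the male Tg E2 array, 40.9 on the female Tg array, 78.6 on the male Tg array and 34.3 on the male WT array. Those of the lymphocyte markers were 20.8 on the male Tg E2 array, 62.4 on the female Tg array, 85.3 on the male Tg array and 11.5 on the male WT array. Platelet and lymphocyte sums were thus highest on the male Tg array, and the part of these cells in the 5 differences was not tested.

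Several core docking and fusion genes lay inside the 2-fold limits between the male Tg E2 and male Tg arrays. Snap25 differed by 0.04 log2, Vamp2 by 0.53, Stx1a by 0.21, Rab27a by 0.74, Rab3a by 0.50 and Syt7 by 0.63. Of the 11 SNAREs of the plasma membrane route none passed 2-fold, against 2.59% of all genes higher and 7.95% lower. The median of these SNAREs was 0.09 log2. In the list of further genes 2 of 58 were at least 2-fold higher (Sv2b at 1.38 and Pclo at 1.17), or 3.45% against 2.59% of all genes. None was lower, against 7.95%, and the list's median was 0.26 log2. The beta cell markers had a median of 0.64 with 3 of 11 at least 2-fold higher. Ins1 (-0.51), Ins2 (-0.47) and Iapp (-0.31) were lower, inside the 2-fold limits.

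The female Tg array was higher than the male Tg array in Sytl4, Rims3, Rab37, Rims2 and Syt7. Of 81 measured members these 5 were at least 2-fold higher (6.17%), against 3.67% of all genes, and 4 were lower (4.94%), against 8.44%. The median was 0.25 log2, beside 0.11 for all genes. Sytl4 differed by 2.51 ± 0.20 log2 (5.71-fold) and Rims3 by 1.83 ± 0.20 (3.56-fold). Rab37 differed by 1.26 ± 0.20, Rims2 by 1.09 ± 0.31 and Syt7 by 1.05 ± 0.21 log2. The lower members included Syt15 (-1.51 ± 0.25), Rab27b (-1.35 ± 0.21) and Cplx1 (-1.03 ± 0.21). Acinar markers stood beside these with a median of -4.43 log2 and 16 of 17 at least 2-fold lower. Other medians were -2.47 for 4 ductal, -1.90 for 3 erythrocyte, -1.87 for 5 stellate and -1.02 for 5 platelet markers. Lymphocyte markers had -0.09, alpha cell markers 0.08 and delta cell markers 0.12. The part of these cells in the differences was not tested.

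In female Tg over male Tg, Snap25 differed by -0.12 log2, Vamp2 by 0.01 and Stx1a by 0.82. Stx1a was highest of the 4 arrays on the female Tg array. Of the list of further genes 6 of 60 were at least 2-fold higher (10%, against 3.67% of all genes) and none lower (against 8.44%). The higher ones were Baiap3 (1.67), a C2 domain gene of dense-core vesicles, Pclo (1.42), Rimbp2 (1.21), Cadps (1.16), Syngr1 (1.02) and Sv2a (1.01). The list's median was 0.22 log2, and that of the 11 beta cell markers was 0.74 with 5 at least 2-fold higher. Ins1 (-0.54), Ins2 (-0.63) and Iapp (-0.42) were lower on the female Tg array, inside the 2-fold limits.

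Syt10 showed the widest range of any member. In mouse neurons of the olfactory bulb its protein is a calcium sensor for the release of IGF-1. The array carries 1 probe for it, whose first 30 bases are shown with the RefSeq upstream region (GRCm38.p6, chr15:89841811-89842110, minus strand). Capitals there mark TGACG (the core of the cAMP response element), CCGCCC and CAGCACC (the left arm of RE1), and the first of the 3 GC boxes shares letters with CAGCACC.
Syt10 probe, chr15:89612967-89613026 on mm9: aggccaccgtccacaccataaaagcctcca
Syt10 upstream region: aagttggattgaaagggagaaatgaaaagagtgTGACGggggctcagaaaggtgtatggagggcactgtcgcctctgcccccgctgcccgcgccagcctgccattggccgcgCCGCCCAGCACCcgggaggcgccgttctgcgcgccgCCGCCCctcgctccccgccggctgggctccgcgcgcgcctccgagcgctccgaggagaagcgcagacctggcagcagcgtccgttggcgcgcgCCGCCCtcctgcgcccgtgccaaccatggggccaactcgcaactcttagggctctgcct

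Syt10 had a scaled intensity of 1.48 on the male Tg E2 array, 0.0348 on the female Tg array, where the spot gave no clear signal, 8.29 on the male Tg array and 6.97 on the male WT array. Both male arrays without an implant were high, the implanted male array was lower and the female array lowest. Male Tg E2 over male Tg was -2.49 ± 0.20 log2 (5.60-fold lower) and male Tg E2 over male WT -2.23 ± 0.20 (4.71-fold lower). The female Tg array was at least 101-fold lower than the male Tg array and at least 84.9-fold lower than the male WT array. Male Tg over male WT was 0.25 ± 0.20 log2, so these arrays, with and without the transgene, differed by little more than the error. With 1 sample of each kind, sex or implant and the individual sample cannot be told apart. No wild-type female was analysed here.

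Set against male WT, the male Tg E2 array had 5 of 85 measured members at least 2-fold higher (5.88%), against 8.75% of all genes, and 3 lower (3.53%), against 2.7%. Rab38 (2.14), Cplx1 (1.5), Syt1 (1.24), Sytl2 (1.21) and Rab27b (1.05) were higher, and the lower ones included Syt10 and Sytl4 (-1.51). Cplx3 was at least 2.16-fold lower. The median was -0.14 log2, beside -0.10 for all genes.

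The female Tg array had 10 of 83 measured members at least 2-fold higher than male WT (12%), against 7.62% of all genes, and 4 lower (4.82%), against 3.52%. Rab38 (1.78), Sytl2 (1.77), Stxbp5l (1.5), Cplx1 (1.21), Syt1 (1.21), Unc13d (1.15), Syt15 (1.13), Syt16 (1.1), Sytl5 (1.07) and Rab32 (1.03) were higher, and none of these 10 was past 2-fold under all 10 alternatives. The probes of Unc13d had opposite signs in this comparison and lay more than 1 log2 apart. The lower members included Rims3 (-1.62), Rab31 (-1.11) and Sytl4 (-1.07), and Syt8 was at least 2.25-fold lower. Stxbp5l had 0.292 on the male Tg E2 array, 0.702 on the female Tg array, 0.461 on the male Tg array and 0.248 on the male WT array. Sytl4 was thus below male WT by at least 2-fold on each of the 3 transgenic arrays, and Rims3 was so on the male Tg and female Tg arrays but not on the male Tg E2 array (-0.67). The female Tg value of Sytl4 was past 2-fold in 5 of the 10 alternatives, while those of the male Tg E2 and male Tg arrays were so in all 10.

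**Figure D4:**
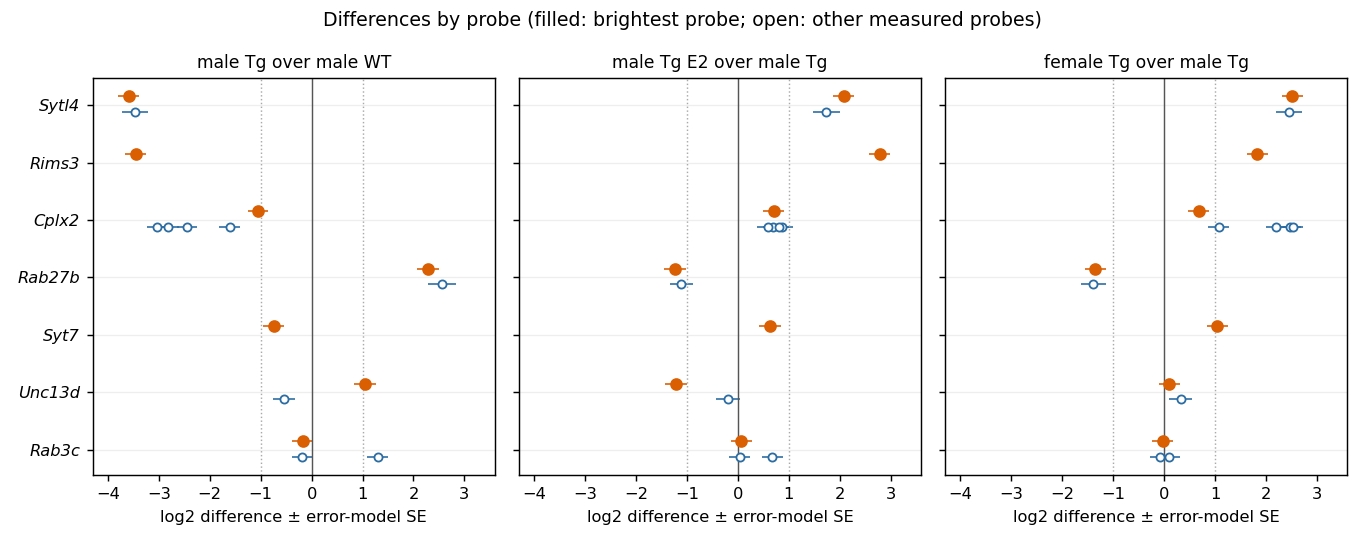
Log2 differences of 7 members by probe with error-model SE as bars, filled for the brightest probe of a gene and open for its other measured probes, for male Tg over male WT, male Tg E2 over male Tg and female Tg over male Tg. The probes of Sytl4 (-3.59 and -3.46) and of Rab27b lie together in the first panel, whereas those of Cplx2 (-1.05 to -3.03), Unc13d and Rab3c spread.

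Where a member had several measured probes, they did not always give one value. In male Tg over male WT the probes of 8 of 27 such members had opposite signs, and those of Cplx2, Rab3c, Stxbp4 and Unc13d lay more than 1 log2 apart. For Rab3c the brightest probe gave -0.17 log2 and the dimmest 1.30. In male Tg E2 over male Tg 8 of 27 had opposite signs, with Unc13d more than 1 log2 apart. For female Tg over male Tg it was 5 of 26, with Cplx2, Rab3d and Stxbp5l that far apart. Against male WT, the male Tg E2 array had 7 of 30 with opposite signs, with Cplx2 and Rab3c that far apart. The female Tg array had 12 of 29, with Rab3c and Unc13d that far apart.

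RefSeq upstream regions were found for 71 of the 95 members and searched on both strands. The GC box GGGCGG was in 73.2% of these members, against 49.2% of protein-coding genes in the table. The cAMP response element core TGACG was in 31.0% against 26.2%, and the full TGACGTCA, which contains that core, was in Stxbp3 only (1.41% against 2.54%). CAGCACC was in 11.3% against 8.30% and GGACAG in 23.9% against 25%, and both RE1 arms within 30 bases of each other were in Ptprn2 and Unc13a (2.82% against 0.52%). TATAAA was in 5.63% against 14.8% and the E-box CANNTG in 74.6% against 72.1%. The Sytl4 region held none of the letters searched, and the Rims3 region printed above held GGACAG at -208 and -197 from the start site, 3 GC boxes and an E-box. These matches describe the letters only, and no binding was measured.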

How the data were processed

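Total RNA of islets, handpicked after collagenase digestion and gradient separation per the labels, was hybridised to 4 one-colour Agilent mouse arrays on 1 slide. The deposited scanner files hold Cy3 intensity per spot on a linear scale, background-corrected by the authors with Agilent Feature Extraction (10.7.1.1 per the file headers, 9.5.1.1 per the submitters' processing notes). The deposited flags for outlier spots and for spots well above background were used as given. The deposited series matrix holds linear intensity with the same quartiles in every column, so it was quantile-normalized by the authors, and it served as an alternative.

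Outlier-flagged spots were left out, spots of a probe averaged, log2 taken and each array's 75th percentile of non-control probes subtracted. A gene is its brightest probe. With 1 array a group no test was run, a call is a difference of at least 2-fold, and lists are described by counts and medians beside those of all genes. The error printed comes from the scanner software's error model. The scripts were tested on simulated data. Members, roles and gene lists were chosen with earlier results of these data known. Named members are a set of core genes, those past 2-fold (at most 10 a direction and comparison) and those with a bound past it. Some members past 2-fold are counted but not reported here by name. Gene names are those of the files, and Stxbp3a is given as Stxbp3. Probe positions are on mm9 per the file headers, and exon or untranslated region was not assigned. Upstream sequences are RefSeq's on GRCm38.p6. Alternatives covered scaling, background correction, filters, probe choice and threshold. Python 3.11.15, numpy 2.4.6, pandas 2.3.3, R 4.3.3 and limma 3.58.1 (normexp, offset 50) were used.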

Additional observations from a re-analysis of the deposited data

How the results depend on the processing

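All differences of called members kept their sign, where measured, under the 10 alternatives of scaling, background correction, filter and probe choice. Probe choice here means the median over a gene's probes. Taken singly, the probes of the called member Unc13d had opposite signs in male Tg over male WT and in female Tg over male WT. Members past 2-fold under each of them included, in male Tg over male WT, Rab37, Rims3, Syt13, Sytl4 and Vamp4 among the lower and Cplx1, Rab27b, Rab32, Syt1 and Syt15 among the higher, for male Tg E2 over male Tg Rab31, Rims3, Sytl4 and Syt15 (Syt10 in the 9 that measured it), and for female Tg over male Tg Rab37, Rims3, Sytl4 and Rab27b. In female Tg over male WT none of the 10 higher members and, of the 4 lower, Rims3 alone was past 2-fold throughout. In male Tg over male WT Unc13d was past 2-fold in 5 of 10 alternatives and Rab31, Rab36, Rab39b and Rims2 in 7. Of 1526 differences of named members, 1381 moved by less than the members' median standard error and 145 by more. Counts moved with the setting, as did the shares of all genes, with 21.7% lower in male Tg over male WT after scaling to the median and 26.1% at 1.5-fold. Percentages in brackets below are shares of all genes. In these settings 83 members were measured in male Tg over male WT, male Tg E2 over male Tg and female Tg over male WT. In female Tg over male Tg 81 were measured, in male Tg E2 over male WT 85, and with no background filter 95 in each. With scaling to the median, male Tg over male WT had 24 lower members (21.7%) and a median of -0.66 log2, beside -0.56 for all genes. Male Tg E2 over male Tg had 5 higher (4.38%), female Tg over male Tg 2 lower (7.3%), and female Tg over male WT 5 higher (5.96%) and a median of -0.33. Relative to the median of all genes, male Tg over male WT had 7 lower (5.23%) and a median of -0.10. Female Tg over male Tg had 3 higher (2.56%) and female Tg over male WT 1 lower (2.58%). With the percentile taken over probes above background on all 4 arrays, 7 were lower in male Tg over male WT (5.58%) and 1 in female Tg over male WT (2.26%). After normexp and quantile normalization male Tg over male WT had 5 higher (11%) and 7 lower (4.66%). Male Tg E2 over male Tg then had 2 lower (5.21%) and female Tg over male Tg 1 lower (6.22%). Male Tg E2 over male WT then had 1 higher (4.41%), and female Tg over male WT 0 higher (4.008%) and 1 lower (1.69%). Quantile normalization gave female Tg over male WT 6 higher (6.91%) and 2 lower (3.42%), and the series matrix 2 lower (3.37%). With no background filter male Tg E2 over male Tg had 6 higher (4.14%). Male Tg E2 over male WT then had 8 higher (12%) and 6 lower (4.32%), and female Tg over male WT 7 lower (5%). At 1.5-fold there were 28 lower in male Tg over male WT (26.1%). Male Tg E2 over male Tg had 19 higher (11.8%) and 10 lower (14%). In female Tg over male Tg 19 were higher (15%) and 8 lower (15.1%). Male Tg E2 over male WT had 11 higher (14.3%) and 7 lower (9.5%). In female Tg over male WT 16 were higher (13.2%) and 10 lower (13.3%). At 4-fold there were 4 higher (6.89%) and 2 lower (1.17%) in male Tg over male WT. In female Tg over male Tg 1 was higher (0.14%) and 0 lower (3.22%), and in male Tg E2 over male Tg 1 was lower (1.7%). In male Tg E2 over male WT 1 was higher (2.31%) and 1 lower (0.27%), and in female Tg over male WT 0 (2.17%) and 0 (0.3%). The cause of these shifts was not tested. No paired analysis was possible because each group has 1 array and the labels give no replicate number. Single arrays leave the variation between mice unmeasured, and the 8 members dim on all arrays give no difference.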

Other observations

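The genes next to Syt10 in the RefSeq order did not show its pattern. Of 5 genes on either side, 9 were on the array and 8 of these were well above background on all 4 arrays. Cpne8 was the only one of these 8 past 2-fold between the female Tg and male Tg arrays, with 0.461 on the male Tg E2 array, 0.279 on the female Tg array, 0.587 on the male Tg array and 0.254 on the male WT array, so that female Tg over male Tg was -1.07 log2 but male Tg over male WT 1.21. Kif21a, a kinesin gene, had 7.79 on the male Tg E2 array, 7.03 on the female Tg array, 6.04 on the male Tg array and 9.78 on the male WT array.

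The Rab3 regulators lay inside the 2-fold limits in all 5 comparisons. Rab3gap1 and Rab3gap2, the subunits of the complex that switches Rab3 off, differed by -0.71 and -0.90 log2 in male Tg over male WT. Rab3il1, an exchange factor, differed by 0.98 log2 in the same comparison.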
